A study of Mus musculus with 6 samples.

Results

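Cytosolic sulfotransferases are a family of liver enzymes, and 10 of their genes were described here out of 49212 genes counted in each library: Sult1a1, Sult1b1, Sult1c2, Sult1d1, Sult1e1, Sult2a1, Sult2a2, Sult2a5, Sult3a1 and Sult5a1. They were taken by symbol from the deposited gene counts, and all 10 passed the filter on low counts. Transcripts of Sult2a1, Sult2a2 and Sult3a1 were abundant in every placebo liver and had 5 to 16 reads in each liver labelled DHT. Sult2a5 had 0 reads in the livers labelled DHT. The other 6 genes stayed detected in all 6 libraries, and none of them passed the test.

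The samples were livers of C57BL/6J mice aged 15 weeks, 3 from mice given a placebo pellet and 3 from mice given a pellet of DHT (dihydrotestosterone, an androgen that cannot be turned into estrogen). The labels call the treated animals PCOS mice, after polycystic ovary syndrome, which a DHT pellet is used to model. Total RNA was extracted from whole liver tissue and read as paired ends. The labels give no sex, no time of collection and no statement that the libraries came from separate animals, so the p-values reflect the spread of these 6 samples alone, which may be technical.

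A sulfotransferase moves a sulfonate group from the donor PAPS (3'-phosphoadenosine 5'-phosphosulfate) to a hydroxyl or amine group of a small molecule, which makes it more soluble in water and usually less active. SULT1 enzymes act mostly on phenols, thyroid hormone, catecholamines and estrogens, and SULT2 enzymes on hydroxysteroids and bile acids. In mouse liver Sult2a1, Sult2a2 and Sult3a1 are known for far higher expression in females than in males.

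Total counts lay between 41336844 and 60209462 per library, so that 3 counts in a library corresponded to 0.0498 to 0.0726 CPM (a gene's share of all gene counts of its library, scaled in the usual way). The DHT-labelled libraries held 142.9 to 165.5 CPM of the Y-linked genes Ddx3y, Eif2s3y, Uty and Kdm5d together, and the placebo libraries 0.114 to 0.182. Xist, the RNA that silences an X chromosome in female cells, stood at 23.3 to 234.9 CPM in placebo and 0.116 to 0.556 CPM in the DHT-labelled libraries. Carriage of Y-linked transcripts and the treatment label therefore split the 6 libraries the same way and cannot be told apart in any comparison below. By these transcripts the placebo livers read as female and the DHT-labelled livers as male, so sex and treatment cannot be told apart here. Placebo 3 stood apart from placebo 1 and 2, with the highest Xist value and the lowest share of mitochondrial counts (3.23%, against 4.83% to 8.47% in the other 5 libraries).

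Because the Sult2a genes are close copies, the same coding stretch is shown for 4 of them, so that the similarity behind their counts can be seen. The stretch covers 90 coding bases of Sult2a1 (chr7:13832659-13836005 on the minus strand, GRCm38) and what aligns to it in Sult2a2 (chr7:13734911-13738269, plus strand), Sult2a5 (chr7:13625401-13628759, plus strand) and Sult2a8 (chr7:14423516-14425392, minus strand). It lies in 2 coding exons in each gene. Sequences are from the GENCODE transcripts of GRCm38, 5′ to 3′, and capitals mark bases that differ from Sult2a1.
Sult2a1: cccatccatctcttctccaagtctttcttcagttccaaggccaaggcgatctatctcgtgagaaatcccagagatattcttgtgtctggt
Sult2a2: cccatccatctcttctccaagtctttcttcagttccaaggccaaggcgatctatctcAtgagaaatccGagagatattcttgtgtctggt
Sult2a5: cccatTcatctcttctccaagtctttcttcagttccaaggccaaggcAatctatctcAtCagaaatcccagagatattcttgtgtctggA
Sult2a8: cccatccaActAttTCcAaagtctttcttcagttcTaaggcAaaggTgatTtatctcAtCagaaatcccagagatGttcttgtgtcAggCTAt

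In this stretch Sult2a2 differed from Sult2a1 at 2 bases, Sult2a5 at 5 and Sult2a8 at 16, of which 3 are inserted bases. Over the whole coding sequence, Sult2a1 was 97.9% identical to Sult2a2 (585 aligned bases) and 94.9% identical to Sult2a5 (858 aligned bases), but 70.5% identical to Sult2a8. Windows of 150 bases, the length of 1 read, were shared without any mismatch with another gene in 6.31% of the transcript windows of Sult2a1, 20.6% of those of Sult2a2 and 7.47% of those of Sult2a5. The partners were each other. No such window was shared in the other 7 genes, nor in Sult2a8. How reads of these 3 copies were shared out is uncertain, because the rule used for reads that map to several places is not given in the sources used here. The annotated Sult2a2 transcript also holds only 585 coding bases, so its level per length is on a different footing.

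The 3 hydroxysteroid sulfotransferase genes among the 10 were all lower in the DHT-labelled libraries. Sult2a1 (chromosome 7, 13796246 to 13837409), which encodes an enzyme for dehydroepiandrosterone and bile acids, had 90.97, 297.1 and 79.05 CPM in placebo 1, 2 and 3. In libraries 1, 2 and 3 labelled DHT it had 0.2194, 0.09665 and 0.2419 CPM, which were 13, 5 and 10 reads. The groups did not overlap, and the lowest placebo value was far above the highest value of the DHT-labelled libraries. The log2 fold change (DHT minus placebo, with its standard error) was −9.90 ± 0.81 (adjusted p = 0.00144, edgeR's quasi-likelihood test with Benjamini-Hochberg adjustment over 15126 genes), a fitted level 952-fold lower. Without placebo 2 the log2 fold change was −9.02. In the opposite direction, the Y-linked gene Ddx3y had 12 reads over the placebo libraries and 11449 over the DHT-labelled ones. Whether the few reads of Sult2a1, Sult2a2 and Sult3a1 in the DHT-labelled libraries arose in those livers was not tested.

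Sult2a2 (chromosome 7, 13733505 to 13779636), its closest copy, had 165, 285.3 and 163.2 CPM in placebo 1, 2 and 3 and 0.1688, 0.1933 and 0.1693 CPM in the DHT-labelled libraries. Both groups were tight, with the highest placebo value 1.75 times the lowest. The log2 fold change was −10.34 ± 0.45 (edgeR adjusted p = 4.22e-05). Ranked by the fitted log2 fold change, it was gene 2 from the bottom of all 15126 genes tested, after Sult2a5.

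Sult2a5 (chromosome 7, 13623967 to 13670807) was the weakest of the 3 copies, with 5.049, 12.71 and 3.995 CPM in placebo 1, 2 and 3. Its 304, 699 and 211 placebo reads faced 0 reads in each library labelled DHT. Against a floor of 3 counts over the 3 libraries the level was at least 367-fold lower (edgeR adjusted p = 0.00865). The call was lost without placebo 1 (edgeR adjusted p = 0.0508). All 3 copies were highest in placebo 2 and lowest in placebo 3.

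Sult3a1 (chromosome 10, 33863935 to 33879475), an amine sulfotransferase gene, varied most among the placebo livers. It had 23.9, 124.5 and 260.4 CPM in placebo 1, 2 and 3, a 10.9-fold range, and 0.1519, 0.3093 and 0.1451 CPM in the DHT-labelled libraries. Even the low value of placebo 1 lay above all 3 of the latter. The log2 fold change was −9.58 ± 1.05 (edgeR adjusted p = 0.00551), and −8.70 without placebo 3, −8.53 without both libraries numbered 3 and −8.26 with limma voom. Unlike the Sult2a copies, it was highest in placebo 3.

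**Figure D1:**
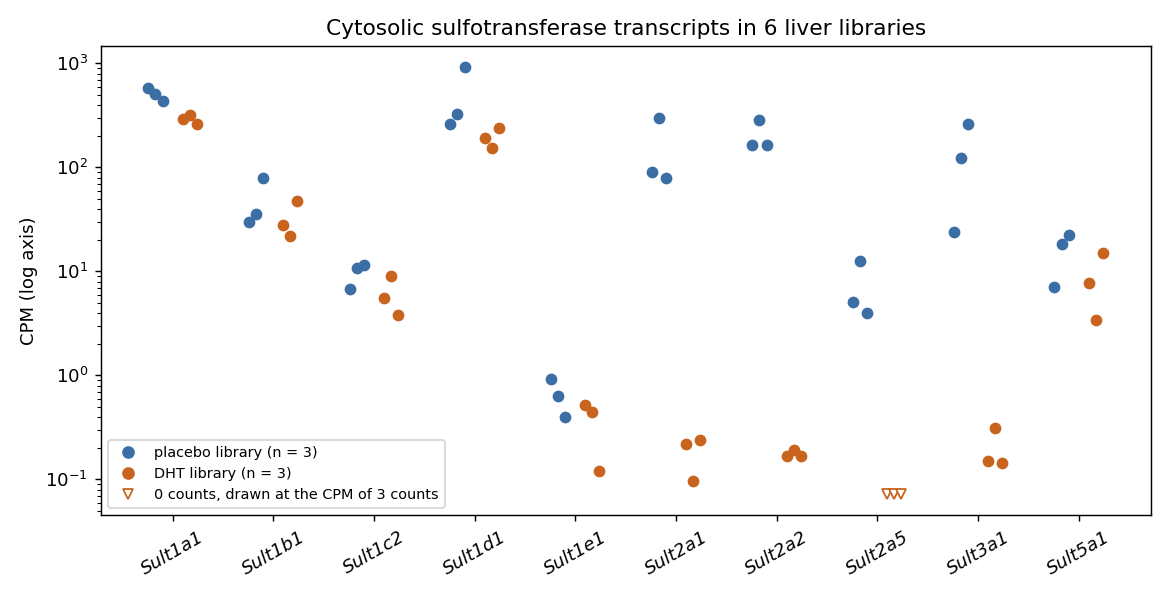
CPM of the 10 sulfotransferase genes in each of the 6 libraries, on a log axis; each point is a library, and open triangles mark 0 counts, drawn at the CPM of 3 counts in the shallowest library. Sult2a1, Sult2a2, Sult2a5 and Sult3a1 lie between 3.995 and 297.1 CPM in placebo and at or below 0.3093 CPM in the DHT-labelled libraries, while the groups of the other genes lie close together or overlap.

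By edgeR, 4 of the 10 genes were called lower and 0 higher, where 1.65% of all 15126 genes tested were called, 0.701% lower and 0.952% higher. At an unadjusted p under 0.05 there were 6 lower and 0 higher, where 8.52% of all genes tested were lower and 7.4% higher. DESeq2 called 6 lower and 0 higher, where it called 3.73% of all genes lower. All 10 fitted log2 fold changes were below 0, as were 7844 of the 15126. The median was −1.32 over the 10 genes, the same with Sult2a5 placed at its bound, and −0.0245 over all genes tested. In CPM the groups did not overlap in 6 of the 10, each time with the DHT-labelled libraries below placebo. Of all genes tested, 6.27% did so. With CPM scaled by TMM, edgeR's adjustment between libraries, the same genes did so, as did 10.9% of all genes tested. A fit with the library number as a block called 6 lower and 0 higher, where it called 5.28% of all genes lower. The 10 genes were chosen with earlier results of these data known.

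Of the SULT1 genes, which encode the phenol, catecholamine, thyroid hormone and estrogen enzymes, edgeR called none. DESeq2 called Sult1a1 and Sult1d1 lower (adjusted p = 0.00137 and 0.0289), and limma voom Sult1a1 (adjusted p = 0.0319). Sult1a1 (chromosome 7, 126672865 to 126676432), the main phenol sulfotransferase gene, had 574.2, 511.8 and 434.1 CPM in placebo 1, 2 and 3 and 292, 321 and 261.8 CPM in the DHT-labelled libraries. The groups did not overlap. Its log2 fold change was −0.98 ± 0.25 (edgeR adjusted p = 0.111). The libraries carry the numbers 1 to 3 in both groups, and a fit with that number as a block called Sult1a1 lower (−0.98 ± 0.31, edgeR adjusted p = 0.0269), as did the fit without placebo 3 (edgeR adjusted p = 0.0289).

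Sult1d1 (chromosome 5, 87554645 to 87569027), whose enzyme acts on catecholamines, had 260.5, 324.9 and 918.6 CPM in placebo 1, 2 and 3. The DHT-labelled libraries had 192.3, 152.6 and 240.3 CPM, again below placebo without overlap. Placebo 3 held 3.53 times the level of placebo 1. The log2 fold change was −1.56 ± 0.50 (edgeR adjusted p = 0.196), and −1.34 ± 0.33 with the block (edgeR adjusted p = 0.00315). Without placebo 3 the value was −0.77.

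The remaining SULT1 genes overlapped between the groups. Sult1b1 (chromosome 5, 87513339 to 87538195), a thyroid hormone sulfotransferase gene, had 30.09, 35.79 and 79.71 CPM in placebo 1, 2 and 3 and 27.93, 21.9 and 48.04 CPM in the DHT-labelled libraries (log2 fold change −0.77 ± 0.45, edgeR adjusted p = 0.436). Its highest value in each group came from the library numbered 3. Sult1c2 (chromosome 17, 53829637 to 53846339) had 6.793, 10.76 and 11.63 CPM against 5.535, 9.066 and 3.798 CPM (log2 fold change −0.86 ± 0.38, edgeR adjusted p = 0.321).

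Sult1e1 (chromosome 5, 87575969 to 87591594) encodes the estrogen sulfotransferase, which inactivates estradiol. It was near the limit of detection, with 56, 35 and 21 reads in placebo 1, 2 and 3 and 31, 23 and 5 in the DHT-labelled libraries. In CPM these were 0.9301, 0.6362 and 0.3976 against 0.5231, 0.4446 and 0.121, with overlapping groups. The log2 fold change was −1.0 ± 0.58 (edgeR adjusted p = 0.431). Sult1b1, Sult1d1 and Sult1e1 lie next to each other within 78.26 kb of chromosome 5, with no other counted gene inside that span.

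Sult5a1 (chromosome 8, 123140192 to 123158315) had 7.109, 18.48 and 22.34 CPM in placebo 1, 2 and 3 and 7.695, 3.441 and 15.05 CPM in the DHT-labelled libraries. Placebo 1 lay below DHT 1 and DHT 3, so the groups overlapped. The log2 fold change was −1.08 ± 0.59 (edgeR adjusted p = 0.403), and −1.69 without DHT 3.

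Per exon length, as RPKM (CPM per kilobase of exon), the order of the genes differed between the groups. In placebo, Sult1a1 led with 336.2 ± 46.6 RPKM, followed by Sult2a2 with 276 ± 94.5, Sult1d1 with 203.9 ± 147.5, Sult2a1 with 152.7 ± 120.2 and Sult3a1 with 130.1 ± 113.3 (SD, n = 3 each). Sult1b1 (17.5 ± 9.77), Sult2a5 (6.93 ± 4.55), Sult1c2 (5.27 ± 1.40), Sult5a1 (3.62 ± 1.79) and Sult1e1 (0.527 ± 0.215) came after them. The ranges over the 3 placebo livers overlapped between neighbours in this order, except between Sult5a1 and Sult1e1. In the DHT-labelled libraries, Sult1a1 had 193.5 ± 19.7 RPKM, Sult1d1 79.3 ± 17.9 and Sult1b1 11.7 ± 4.92, and these 3 did not overlap. Sult1c2 (3.32 ± 1.45), Sult5a1 (1.98 ± 1.33) and Sult1e1 (0.292 ± 0.172) came next by their means, and the 4 called genes were last, although Sult1e1 lay below Sult2a1, Sult2a2 and Sult3a1 in DHT 3.

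Summed over the 10 genes, the level was 843.3, 1302.5 and 1252.2 RPKM in placebo 1, 2 and 3 and 287.8, 289.6 and 294.9 RPKM in the DHT-labelled libraries. The 4 called genes made up 40.3%, 62% and 43.9% of that sum in placebo and 0.204%, 0.225% and 0.205% in the DHT-labelled libraries. Without those 4, the sum was 567 ± 117 RPKM in placebo and 290 ± 3.69 RPKM in the DHT-labelled libraries (SD, n = 3 each). Sult1a1 alone took 23% to 45.2% of the sum in placebo and 58.9% to 73.5% in the DHT-labelled libraries. These sums and shares leave out Sult2a8, which is not among the 10 genes. That gene had 319.3 ± 351.7 RPKM in placebo and 213.1 ± 180.9 RPKM in the DHT-labelled libraries (SD, n = 3 each). It lay below Sult1a1 in DHT 1 and 2 (124.1 and 93.97 against 193.8 and 213 RPKM) and above it in DHT 3 (421.3 against 173.7 RPKM). In bulk tissue, fewer cells of a type and less RNA per cell cannot be told apart.

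**Figure D2:**
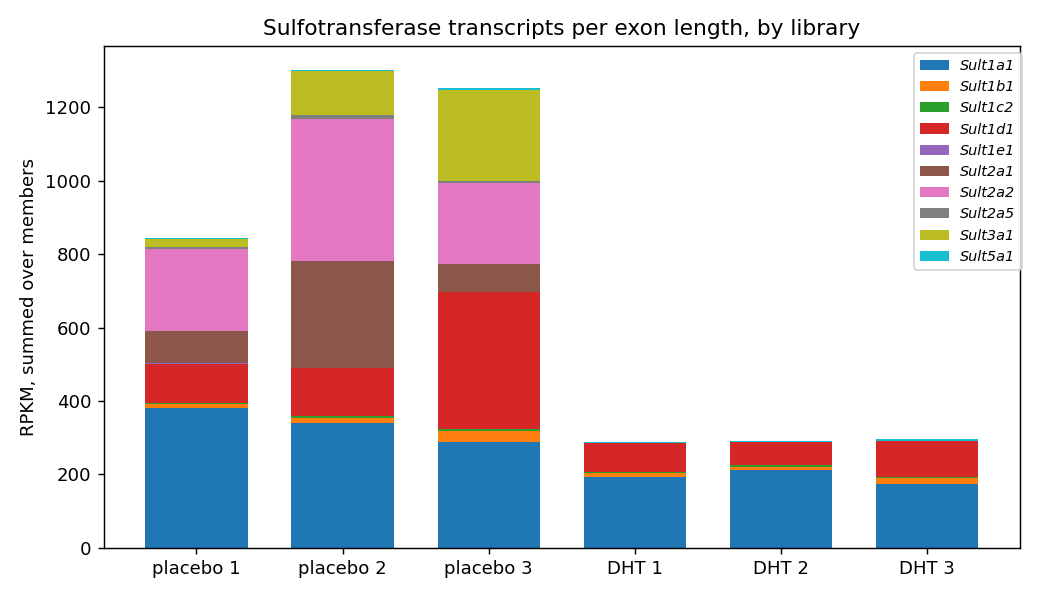
RPKM of the 10 genes stacked by library; each bar is a library and each colour a gene. The bars reach 843.3 to 1302.5 in placebo and 287.8 to 294.9 in the DHT-labelled libraries, where Sult1a1 and Sult1d1 fill nearly the whole bar.

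The rest of the Sult2a group was read from a list of the 11 other cytosolic sulfotransferase genes, all of them counted and 2 of them tested. Sult2a8, which encodes a bile acid sulfotransferase, lies 786.7 kb from Sult2a5 in the same cluster. It was the highest of that list, with 244.8, 528.9 and 2371.9 CPM in placebo 1, 2 and 3 and 407.5, 308.6 and 1383.7 CPM in the DHT-labelled libraries. The groups overlapped, and both libraries numbered 3 stood high. Its log2 fold change was −0.80 ± 0.87 (edgeR adjusted p = 0.684), and 0.65 without placebo 3, so its sign is not settled. Sult2a7, its neighbour, was also tested and had a log2 fold change of −2.06 ± 1.11 (edgeR adjusted p = 0.394). It had 0.5149, 2.89 and 22.78 CPM in placebo 1, 2 and 3 and 3.257, 1.45 and 2.492 CPM in the DHT-labelled libraries, and its value without placebo 3 was 0.30. The pseudogene Sult2a-ps1, between Sult2a5 and Sult2a2, had 36 reads in placebo and 0 in the DHT-labelled libraries. The difference in log2 fold change between Sult2a8 and each of Sult2a1, Sult2a2 and Sult2a5 was not tested.

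Between them lie 3 Sult2a genes with few reads. Sult2a3 had 3, 234 and 36 reads in placebo 1, 2 and 3 and 3, 0 and 0 in the DHT-labelled libraries, a CPM ratio of 82.5 (exact 95% interval 27.9 to 402). Sult2a4 had 24 reads in placebo and 0 in the DHT-labelled libraries, at least 7.25-fold lower. Sult2a6 had 10 reads against 1, a ratio of 9.06 (exact 95% interval 1.29 to 393). Intervals and floors rest on reads pooled over each group and cover counting error only. In CPM the groups of Sult2a3 overlapped, with placebo 1 at 0.0498 and DHT 1 at 0.0506. With no low-count filter the edgeR adjusted p of Sult2a3 was 0.338. Summed over Sult2a1 to Sult2a6, whichever of these genes a read was assigned to, the level was 261.1, 599.7 and 247.1 CPM in placebo and 0.456, 0.29 and 0.411 CPM in the DHT-labelled libraries.

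**Figure D3:**
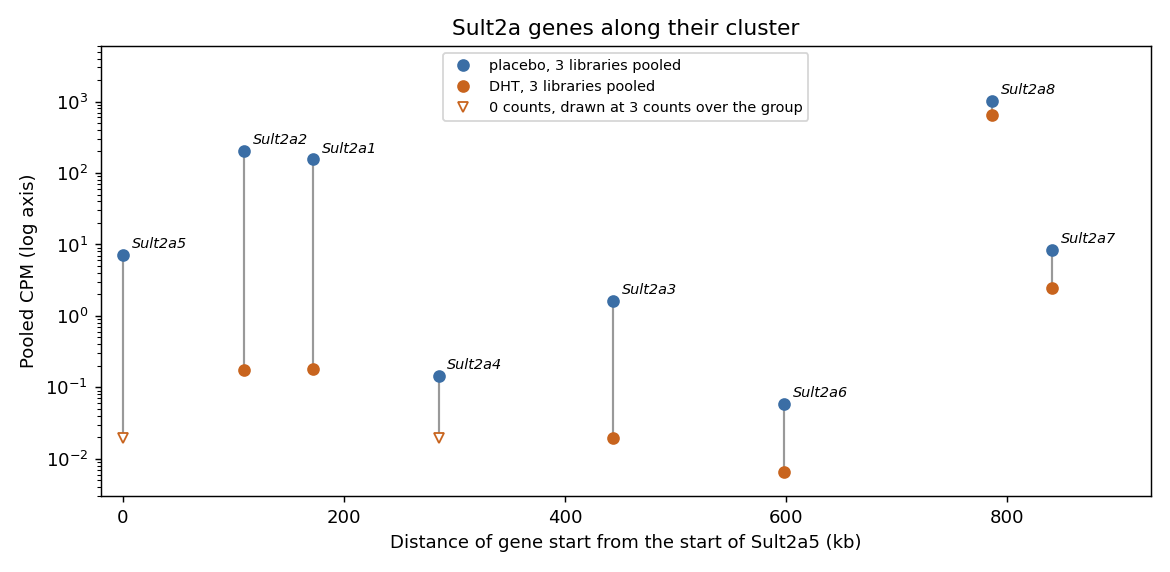
Sult2a genes in their order on chromosome 7, by distance from the start of Sult2a5 in kb. The CPM of each group, pooled over its 3 libraries, is on a log axis. Open triangles mark 0 counts, drawn at 3 counts over the group. The points of Sult2a3 and Sult2a6 in the DHT-labelled libraries rest on 3 counts and 1 count. The 6 genes within the first 598.4 kb all lie lower in the pooled DHT-labelled libraries, by the ratios and bounds given in the text. Sult2a8 at the other end has the highest CPM of the cluster in both groups, but 3284 exon bases against 741 in Sult2a2. Per exon length, Sult2a2 was above Sult2a8 in placebo 1 and 2 (222.6 and 385.1 against 74.54 and 161 RPKM). In placebo 3 it was below (220.2 against 722.3 RPKM).

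Sult3a2, which is 90.9% identical to Sult3a1 in its coding sequence and shares a span of 113.1 kb of chromosome 10 with it, followed the same order among the placebo livers. It had 1, 147 and 268 reads in placebo 1, 2 and 3 and 1, 1 and 0 in the DHT-labelled libraries, a CPM ratio of 189 (exact 95% interval 51.9 to 1560). The interval rests on pooled reads and covers counting error only. In CPM placebo 1 (0.0166) lay below DHT 1 (0.0169) and DHT 2 (0.0193), so the groups overlapped. With so few reads in placebo 1, Sult3a2 did not pass the filter. With no low-count filter its edgeR adjusted p was 0.296. It was called only in the fit without placebo 1 among those it entered (log2 fold change −8.19 ± 0.66, edgeR adjusted p = 0.0086). Gm10327, a counted gene between the pair, had 51 reads in placebo and 60 in the DHT-labelled libraries (log2 fold change 0.19 ± 0.40, edgeR adjusted p = 0.853).

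The remaining list members were barely detected. Sult1c1, Sult2b1, Sult4a1, Sult6b1 and Sult6b2 had at most 6 reads in any library, and none was tested. Over the list, edgeR called 0 of the 2 tested genes, with 0 at an unadjusted p under 0.05 and 0 by DESeq2.

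The stretch before the start site is shown for Sult2a5 and Sult2a3, copies with few or no reads in the DHT-labelled libraries. Sult2a3 also had only 3 reads in placebo 1 and was not tested. Windows of 300 bases around the start site from RefSeq (GRCm38.p6) were found for 8 of the 10 genes and for Sult2a3, Sult2a4, Sult2a6, Sult2a8 and Sult3a2. Over 227 aligned bases, Sult2a5 (chr7:13623740-13623966, plus strand) and Sult2a3 (chr7:14123072-14123298, minus strand) differed at 27, marked by capitals in the latter. The stretch ends directly before the RefSeq start site in Sult2a5 and 23 bases before it in Sult2a3.
Sult2a5: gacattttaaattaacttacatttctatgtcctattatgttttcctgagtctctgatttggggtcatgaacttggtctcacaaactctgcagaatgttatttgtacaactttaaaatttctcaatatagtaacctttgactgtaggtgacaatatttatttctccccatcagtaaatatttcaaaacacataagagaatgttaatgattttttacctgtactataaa
Sult2a3: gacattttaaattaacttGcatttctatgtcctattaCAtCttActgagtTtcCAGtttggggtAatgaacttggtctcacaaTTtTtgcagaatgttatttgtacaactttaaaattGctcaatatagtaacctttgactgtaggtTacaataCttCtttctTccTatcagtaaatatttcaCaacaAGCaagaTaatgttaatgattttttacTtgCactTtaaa

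Over the full windows, Sult2a5 was 92.2% identical to Sult2a4, 87.4% to Sult2a3 and 80.9% to Sult2a6. It was 63.6% identical to Sult2a8, within the 52.5% to 68.6% seen in 57 pairs from different families, such as SULT1 and SULT2. The highest of these, Sult2a4 with Sult3a1, used the Sult3a1 window that is set aside below. On both strands, the windows of Sult2a5, Sult2a3, Sult2a4 and Sult2a6 held no TTCNNNGAA (the STAT5 site), AGGTCA (a nuclear receptor recognition motif), ATTGAT (the core of the HNF6 and CUX2 site), AGAACA (a steroid receptor recognition motif) or CACGTG (the E-box). Among 32851 promoters of that length these motifs were present in 8.3%, 16.3%, 7.54%, 19% and 7.15%. The absence concerns these letters in these windows only. It was not particular to these genes, since the windows of Sult1d1 and Sult5a1, neither of them called, held none of the motifs either. Windows of Sult1a1, Sult1b1, Sult1c2 and Sult1e1, also not called, did hold matches. The RefSeq start of Sult3a1 lies 6213 bases from the counted gene's start, so its window is not described.

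PAPS and sulfate supply genes, which make, move and recycle the sulfonate donor or release sulfate from cysteine, were 23 in number after the filter. By edgeR 0 were called, with 7 of the 23, 2 higher and 5 lower, at an unadjusted p under 0.05, where 15.9% of all genes tested were. The median log2 fold change was −0.0943. Papss2, the main PAPS synthase gene of liver, had 371.7, 725.8 and 174.1 CPM in placebo 1, 2 and 3 and 183.7, 116.4 and 130.1 CPM in the DHT-labelled libraries (log2 fold change −1.75 ± 0.51, edgeR adjusted p = 0.154). Placebo 3 lay below DHT 1, so the groups overlapped in CPM. With CPM scaled by TMM they did not, and the DHT-labelled libraries lay below placebo. Without placebo 3 it was called lower (−2.12 ± 0.34, edgeR adjusted p = 0.01).

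Ethe1, which encodes a mitochondrial sulfur dioxygenase, had 26.8, 28.9 and 20.9 CPM in placebo 1, 2 and 3 and 51.3, 51.5 and 55.1 CPM in the DHT-labelled libraries (log2 fold change 0.86 ± 0.23, edgeR adjusted p = 0.128). Slc13a4, a sulfate transporter gene, had 0.199, 0.364 and 0.246 CPM against 1.13, 1.16 and 0.581 CPM (log2 fold change 1.64 ± 0.46, edgeR adjusted p = 0.147). With the replicate block, 5 genes of the list were called, where 10.7% of all genes tested were. Ethe1 and Slc13a4 were higher (edgeR adjusted p = 0.0256 and 0.0247), and Papss2, Tstd1 and the PAPS transporter gene Slc35b2 were lower (edgeR adjusted p = 0.00442, 0.00491 and 0.0223). DESeq2 called 5 as well, with Sqrdl in place of Slc35b2, where it called 7.02% of all genes tested. Papss2, Tstd1, Slc35b2 and Sqrdl were chosen after their values were seen.

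Sulfatases, which remove sulfate groups, were represented by 12 tested genes. By edgeR 1 was called higher and 0 lower, where 0.952% of all genes tested were higher and 0.701% lower. At an unadjusted p under 0.05 there were 2 higher and 0 lower, where 7.4% of all genes tested were higher and 8.52% lower. Arsa, the lysosomal arylsulfatase A gene, had 10.2, 7.67 and 4.72 CPM in placebo 1, 2 and 3 and 48.5, 55.8 and 29.9 CPM in the DHT-labelled libraries, with no overlap. Its log2 fold change was 2.39 ± 0.37 (edgeR adjusted p = 0.0203), and 18.8% of its exon bases overlap another counted gene. The call was lost without placebo 1, placebo 2, DHT 1 or DHT 2 (edgeR adjusted p up to 0.0904). Arsg, another lysosomal sulfatase gene, had 9.27, 7.87 and 18.4 CPM against 35.8, 50.2 and 42.4 CPM. Its log2 fold change was 1.66 ± 0.36 (edgeR adjusted p = 0.0766), and it was called with the block (edgeR adjusted p = 1.11e-05).

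Golgi sulfotransferases, which act on proteins, lipids and glycans rather than small molecules, gave 20 tested genes. By edgeR 0 were called, with 2 of the 20, 1 higher and 1 lower, at an unadjusted p under 0.05 (15.9% of all genes tested) and 1 called by DESeq2 (7.02% of all genes tested). The tyrosylprotein sulfotransferase gene Tpst1 had a log2 fold change of −0.85 ± 0.25 (edgeR adjusted p = 0.152), and the cerebroside sulfotransferase gene Gal3st1 1.33 ± 0.43 (edgeR adjusted p = 0.195). With the block both were called (edgeR adjusted p = 0.0349 and 0.0277).

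Of 24 factors known to act on Sult genes, edgeR called 0 higher and 2 lower, where 0.952% of all genes tested were higher and 0.701% lower. At an unadjusted p under 0.05 there were 1 higher and 4 lower, where 7.4% of all genes tested were higher and 8.52% lower. Cux2, a homeobox repressor gene with female-biased expression in mouse liver, had 26.1, 34.5 and 11.2 CPM in placebo 1, 2 and 3 and 0.236, 0.155 and 0.242 CPM in the DHT-labelled libraries. Its level there was lower without overlap, by 7.0 ± 0.54 on the log2 scale (edgeR adjusted p = 0.00111). The call held whichever of the 6 libraries was left out (edgeR adjusted p up to 0.0115). Esr1, which encodes estrogen receptor alpha, had 83.2, 100.6 and 56.6 CPM against 22.4, 12.6 and 13.7 CPM. Its log2 fold change was −2.48 ± 0.35 (edgeR adjusted p = 0.0141), a call lost without placebo 1, placebo 2, DHT 2 or DHT 3 (edgeR adjusted p up to 0.0891). With the block, Prlr, the prolactin receptor gene, chosen after its values were seen, was among those called lower (edgeR adjusted p = 8.46e-05). Prlr was also called by DESeq2, by limma voom, with no low-count filter, without placebo 3 and without both libraries numbered 3.

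**Figure D4:**
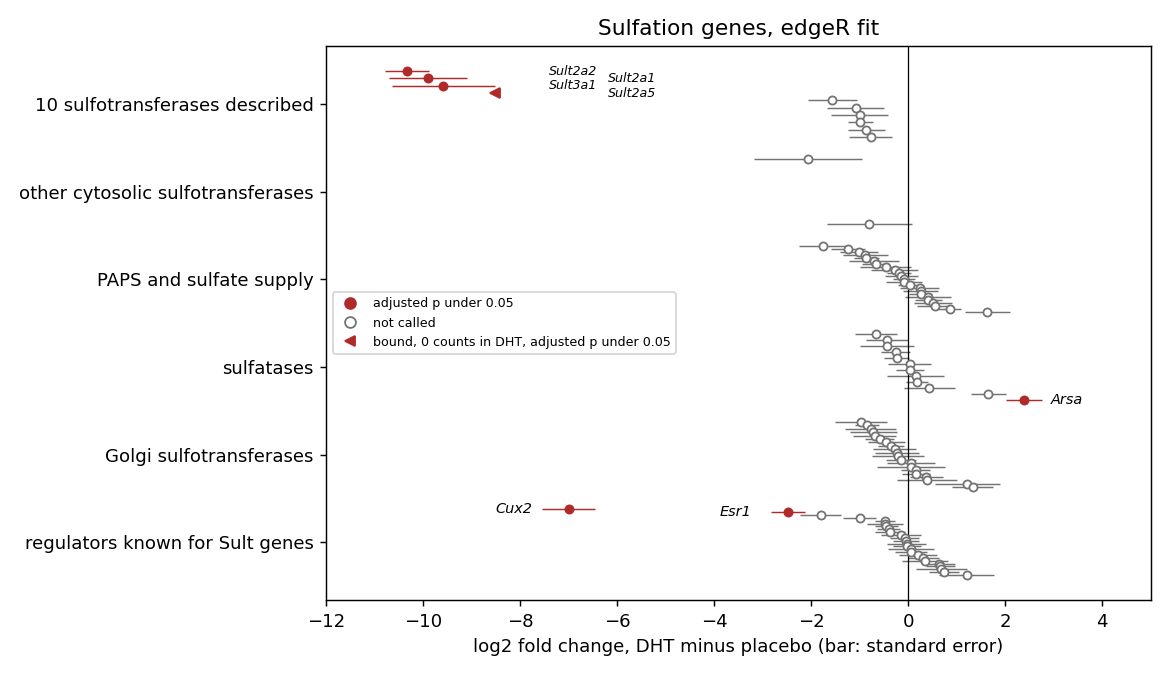
Fitted log2 fold change (DHT minus placebo) with its standard error for each tested gene of the 10 sulfotransferases and 5 lists; filled red marks are called by edgeR at an adjusted p under 0.05, and the triangle is the bound for Sult2a5. Sult2a1, Sult2a2 and Sult3a1 lie between −10.34 and −9.58, Cux2 at −7.0, Esr1 at −2.48 and Arsa at 2.39.

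Marker genes of hepatocytes were present in every library, at 93802 to 146142 CPM summed over 7 genes in placebo and 86122 to 99597 CPM in the DHT-labelled libraries, as the tissue label has it. Summed cholangiocyte markers lay at 75.7 to 83.2 CPM in placebo and 54.4 to 109.6 CPM in the DHT-labelled libraries, stellate cell markers at 270.7 to 546.5 and 257.1 to 345.4, Kupffer cell and macrophage markers at 123.9 to 188.1 and 155.6 to 218.2. Endothelial markers lay at 103.2 to 237 and 116 to 142.4 CPM, and lymphocyte markers at 6.09 to 13.9 and 9.30 to 15.2 CPM. The ranges overlapped for each of these 6 lists, no marker was called, and none was at 0 in all libraries. At an unadjusted p under 0.05, 3 of 5 tested cholangiocyte markers were lower, as was 1 each of the hepatocyte, stellate cell and lymphocyte markers, and 0 were higher, where 8.52% of all genes tested were lower and 7.4% higher. Their part in the changes of the sulfotransferase genes was not tested.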

How the data were processed

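The authors deposited 1 table per library with whole-number gene counts for 49212 genes, with coordinates and exon length per the file headers. Per the submitters' processing notes, the build was GRCm38 and the tools were STAR 2.5.2b, Trimmomatic 0.36, Subread 1.5.2 and featureCounts. The strand setting and the multi-mapping rule were not given in the sources used here. These were raw values, and 0 genes had a blank name.

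CPM was computed over all gene counts and RPKM with the deposited exon length. The comparison was fitted over all genes in R 4.3.3 with edgeR 4.0.16 (filterByExpr, TMM, robust glmQLFit, glmQLFTest, Benjamini-Hochberg), with calls at an adjusted p under 0.05. Standard errors are the log2 fold change over the square root of F. The pipeline was tested on simulated data. Alternatives were DESeq2 size factors, library size alone, no filter, a minimum of 1 CPM in 3 libraries, and a replicate block. Others were DESeq2 1.42.0, limma 3.58.1 voom with a quality weight for each library, and leaving out each library. Leaving out both libraries numbered 3 was chosen after seeing the data. Shared numbers come from the titles, which name no litter or batch. Same-numbered libraries deviated from their group means together (r = 0.307, 0.198 and 0.641 across genes), but so did placebo 1 with DHT 2 (0.319) and placebo 2 with DHT 1 (0.488), so only the numbers 3 stood apart as a pair. Between libraries, chi-square per degree of freedom was 105 or more, so none was a duplicate.

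Members and lists were chosen with earlier results of these data known. Named were all 10 members, every other sulfotransferase with a count, and of each further list the called genes (at most 6) and, where fewer than 2 were called, the 2 with the smallest p. Bpnt2, Sqor, Sts and Tf were not found under these symbols. Some regulator genes are not reported here.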

Additional observations from a re-analysis of the deposited data

How the results depend on the processing

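Over all genes, edgeR called 250, against 521 with no low-count filter, 1621 with the replicate block, 1062 with DESeq2, 707 with limma voom and 448 without both libraries numbered 3, and between 84 and 862 when 1 library was left out (862 without placebo 3). Of the 10 sulfotransferases, 4 were called lower, with 6 under the replicate block and DESeq2 and 3 to 5 when 1 library was left out. None was called higher and no log2 fold change of the 10 changed sign under any alternative it was tested in. Sult2a1, Sult2a2 and Sult3a1 stayed called in each. Calls in the other sulfotransferases were 0, and 1 with no low-count filter (Sult2a4, edgeR adjusted p = 0.0281) and 0 to 1 without 1 library. PAPS and sulfate supply had 0, then 5 with the replicate block, 5 with DESeq2, 2 with voom and 0 to 1 without 1 library. Sulfatases had 1, then 2 with library size alone, no filter, the replicate block, DESeq2, voom or without both libraries numbered 3, and 0 to 2 without 1 library. Golgi sulfotransferases had 0, then 2 with the replicate block, 1 with DESeq2, 1 with voom, 2 without both libraries numbered 3 and 0 to 1 without 1 library. Regulators had 2, then 4 with the replicate block and 1 to 3 without 1 library. With library size alone the all-gene median went from −0.0245 to 0.165 on the log2 scale, and the share of calls that were higher from 57.6% to 69.9%. The share was 46.9% with DESeq2 and 46.8% without placebo 1. Among the 10 sulfotransferases the block changed no call other than those of Sult1a1 and Sult1d1. The cause of these shifts was not tested. At this depth a gene with 0 counts in the libraries labelled DHT can be bounded only at 3 counts over the group, which limits Sult2a5 and Sult2a4.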

Other observations

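Among the placebo livers, the 10 genes did not share an order. Sult2a1, Sult2a2 and Sult2a5 were highest in placebo 2. Sult1b1, Sult1c2, Sult1d1, Sult3a1 and Sult5a1 were highest in placebo 3, as were Sult2a7, Sult2a8 and Sult3a2. Sult1a1 and Sult1e1 were highest in placebo 1. The range within placebo ran from 1.32-fold for Sult1a1 to 10.9-fold for Sult3a1.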
